A study of Drosophila melanogaster and Drosophila simulans and Drosophila yakuba with 72 samples.

Results

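The miRNAs described here are miR-276a and miR-276b of Drosophila, with the other forms of miR-276 that the same array carried. They were found as every probe whose name, without its species prefix, is miR-276 with any letter or arm suffix, which gave 12 of the 1339 miRNA probes on the array. Of these 12 probes, 11 lay above background in enough samples to be tested. The guide strand, which lies on the 3p arm, is read by 3 of them: dme-miR-276a, dme-miR-276b and aae-miR-276, the shorter form listed for the mosquito Aedes aegypti. The other 8 read the 5p or star strand, namely dme-miR-276* and 7 forms of other insects. The remaining probe, dps-miR-276c, was above background in 0 of 72 samples and was not tested.

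A miRNA is cut from a hairpin precursor, and the guide strand, loaded into an Argonaute protein, pairs with messenger RNAs mainly through its seed, bases 2 to 8. In D. melanogaster, miR-276a is known for repressing the dopamine receptor Dop1R1 in neurons of olfactory memory and the clock gene timeless in the circadian system. The transition compared here, the start of metamorphosis, is driven by a pulse of the steroid hormone ecdysone, and the miRNA let-7 is known to come on with it.

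The study measured miRNA in whole animals with 36 arrays of 2 colours, 72 samples in all. Of D. melanogaster there were 4 strains, Canton-S, Oregon-R, Zimbabwe-109 and Samarkand. D. simulans (stock 14021-0251.167) and D. yakuba (stock 14021-0261.00) were represented by 1 stock apiece. Males were sampled from all 6 strains, and females from Oregon-R, Zimbabwe-109 and D. simulans, at a stage labelled PF, read here as puparium formation, and at a stage labelled as at least 18 before it, with no unit, called early here. These make 18 groups of 4 samples, which the design text calls biological replicates, and 9 sets of a strain and a sex. No group carried a transgene or an agent per the labels, and all animals grew at 25 °C in constant light on medium with bromophenol blue. Each sample was a pool of 60 to 80 animals, about 120 mg, so a level is a mean over whole bodies, in which fewer cells of a type and less RNA per cell cannot be told apart.

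An array paired the early and the PF sample of 1 replicate in opposite dyes, with the dyes swapped on 2 of the 4 arrays of a set. The arrays lay on 7 slides, 5 with males and 2 with females, so that sex and slide cannot be told apart. Between 87 and 278 of the miRNA probes were above background in a sample, and the number of arrays limits the precision of every value below. As a check of the stage labels, the let-7 probe was higher at PF by 4.43 to 5.39 on the log2 scale in the 9 sets. Levels are normalized log2 intensities of 1 probe and are compared only between samples of that probe.

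The sequences that the probes were designed to read show how close the 2 guides are. They are given 5′ to 3′ as the array lists them, with the seed in capitals, and both genes, mir-276a and mir-276b, lie on chromosome arm 3L.
dme-miR-276a: uAGGAACUucauaccgugcucu
dme-miR-276b: uAGGAACUuaauaccgugcucu
dme-miR-276*: cAGCGAGGuauagaguuccuacg

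Both guides have 22 bases and the same seed, AGGAACU. They differ at 1 base, outside the seed, by the substitution C10A, with positions counted from 1 at the 5′ end and the base of miR-276a first. In the next lines the capital marks that base.
dme-miR-276a: uaggaacuuCauaccgugcucu
dme-miR-276b: uaggaacuuAauaccgugcucu

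The array lists both guides for D. simulans and D. yakuba as well as for D. melanogaster, and dme-miR-276* for D. melanogaster only among these 3 species. The target of aae-miR-276 has 21 bases, all of them shared with miR-276a. How far the probes of miR-276a and miR-276b bind each other's miRNA was not tested. The targets of the 8 star probes have 19 to 23 bases and share a stretch of 18, so these probes read much the same molecules and are not independent of each other. In the RefSeq annotation, mir-276a lies inside the long non-coding RNA lncRNA:CR46006, whose synonym pri-mir-276b_mir-276a names both hairpins, and mir-276b lies outside the annotated bounds of that RNA.

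With the processing used here, miR-276a was higher at PF than at the early stage in all 9 sets and miR-276b was as well. For miR-276a the call in most sets depended on the processing, as given below. The larger change in probe signal of the 2 guides was mostly that of miR-276b. Averaged over the 4 D. melanogaster strains in males, miR-276a was 2.04-fold higher at PF and miR-276b 2.86-fold. In females of Oregon-R and Zimbabwe-109 the averages were 2.0-fold and 2.73-fold. The dme-miR-276a probe was above background in 72 of 72 samples, with scanner intensities of 461 to 11664, and dme-miR-276b in 70 of 72, with 66.5 to 6907.

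The normalized log2 intensity of dme-miR-276a in Oregon-R males was 12.02, 11.55, 11.18 and 11.16 at the early stage and 12.43, 12.75, 12.45 and 12.58 at PF. In Canton-S males it was 11.54, 11.06, 11.36 and 11.19 early and 12.07, 12.16, 12.5 and 12.4 at PF. In Samarkand males it was 11.29, 10.81, 11.05 and 11.36 early and 11.92, 12.26, 12.42 and 12.53 at PF. In these 3 strains every PF sample lay above every early sample. Zimbabwe-109 males had 11.29, 11.39, 11.68 and 11.49 early and 12.04, 12.71, 11.94 and 12.71 at PF, again without overlap. Zimbabwe-109 females had 11.65, 11.69, 10.9 and 10.56 early and 12.06, 12.14, 11.23 and 12.2 at PF. This was the set in which the stages overlapped for dme-miR-276a, with the PF sample of replicate 3, at 11.23, below 2 early samples.

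Oregon-R females had 10.99, 10.99, 11.06 and 11.37 early and 12.17, 12.57, 12.61 and 12.25 at PF. In D. simulans, males had 11.06, 10.99, 11.86 and 11.31 early and 12.38, 12.35, 12.68 and 12.67 at PF. D. simulans females had 11.56, 11.61, 11.46 and 11.35 early and 12.21, 12.05, 12.15 and 12.07 at PF. D. yakuba males had 11.35, 11.58, 11.56 and 11.13 early and 12.63, 12.54, 12.48 and 12.71 at PF. In none of these 4 sets did the stages overlap.

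The levels of dme-miR-276b spread more. Oregon-R males had 8.97, 8.4, 8.01 and 8.03 early and 9.63, 10.16, 9.75 and 10.23 at PF. Samarkand males had 9.08, 7.95, 7.87 and 8.39 early, where 2 of the 4 samples were not above background, and 10.03, 10.53, 9.99 and 10.54 at PF. Both sets were separated by stage. Canton-S males had 10.13, 8.52, 8.88 and 8.26 early and 10.49, 11.37, 9.63 and 10.69 at PF, so that the early sample of replicate 1 lay above the PF sample of replicate 3. Zimbabwe-109 males had 9.28, 8.37, 8.49 and 9.02 early and 9.96, 9.47, 9.04 and 10.4 at PF. Zimbabwe-109 females had 10.1, 9.08, 9.46 and 10.14 early and 10.08, 10.87, 10.66 and 11.35 at PF. The stages overlapped in these last 3 sets, and in no other set for this probe.

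Oregon-R females had 9.82, 9.61, 9.17 and 8.4 early and 11.19, 11.67, 10.69 and 10.85 at PF for dme-miR-276b. D. simulans males had 8.57, 8.22, 8.46 and 8.46 early and 10.14, 11.2, 10.28 and 11.08 at PF. The early samples of this group lay close together, the highest at 8.57. D. simulans females had 9.28, 9.43, 9.52 and 9.08 early and 10.63, 10.63, 10.88 and 10.49 at PF. D. yakuba males had 9.37, 9.59, 9.92 and 8.49 early and 11.45, 11.41, 11.11 and 11.37 at PF, which put all 4 of their PF samples above 11.

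**Figure D1:**
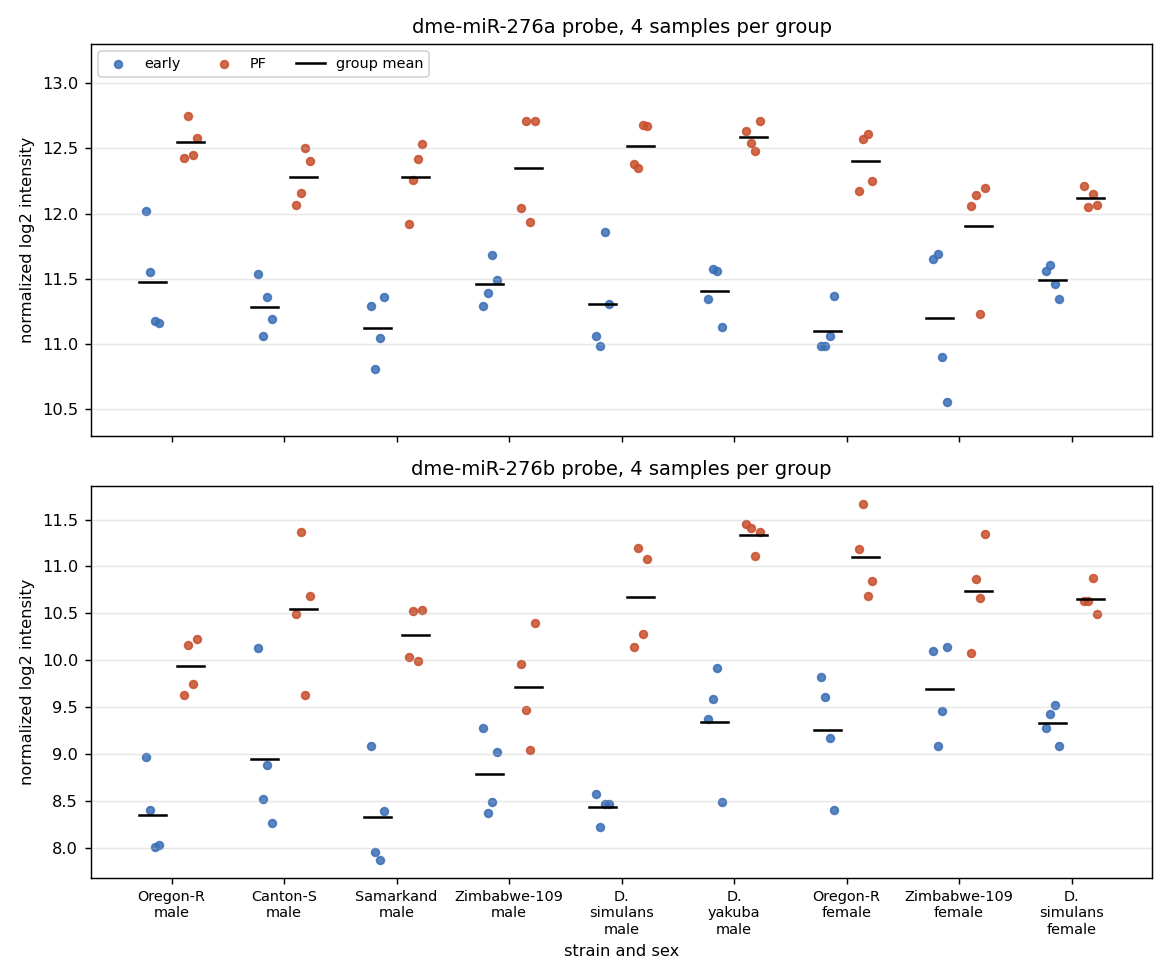
Normalized log2 intensity of the dme-miR-276a probe (top) and the dme-miR-276b probe (bottom) in each of the 72 samples, by strain and sex on the horizontal axis. Each point is a sample and each black line a group mean; the PF points lie above the early points without overlap except in Zimbabwe-109 females for dme-miR-276a and in Canton-S males and both sexes of Zimbabwe-109 for dme-miR-276b.

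Ordered by group mean, all 9 PF groups stood above all 9 early groups for both guides. The highest mean of dme-miR-276a was 12.59 ± 0.1 (SD, n = 4) in D. yakuba males at PF, followed by Oregon-R males at PF with 12.55 ± 0.15 and D. simulans males at PF with 12.52 ± 0.18. Its lowest means were 11.12 ± 0.25 in Samarkand males and 11.1 ± 0.18 in Oregon-R females, both early. For dme-miR-276b the highest mean was also that of D. yakuba males at PF, 11.34 ± 0.15, followed by Oregon-R females at PF with 11.1 ± 0.43. Its lowest were 8.35 ± 0.45 in Oregon-R males and 8.32 ± 0.55 in Samarkand males, both early. Every neighbouring pair in both orders overlapped in its samples, so no neighbours in either order differed beyond their spread. At the step between the stages, dme-miR-276b had 9.71 ± 0.59 in Zimbabwe-109 males at PF and 9.7 ± 0.52 in Zimbabwe-109 females at the early stage.

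Within arrays, where both stages were hybridized together, dme-miR-276a was higher at PF on 36 of 36 arrays, by 0.26 to 1.64 on the log2 scale with a median of 1.15. dme-miR-276b was higher on 35 of 36, with a range of -0.02 to 2.97 and a median of 1.54. The mean change was tested with limma, a linear model fitted over all 272 tested probes, with the array as a block and p-values adjusted by Benjamini-Hochberg at a threshold of 0.05. In D. melanogaster males the change of dme-miR-276a was 1.03 ± 0.08 (log2, SE; adjusted p = 8.92e-18 by limma) and that of dme-miR-276b 1.52 ± 0.12 (adjusted p = 8.96e-18). In D. melanogaster females dme-miR-276a changed by 1.0 ± 0.11 (adjusted p = 8.73e-12 by limma) and dme-miR-276b by 1.45 ± 0.16 (adjusted p = 1.52e-11). Among the 272 changes these ranked 25th and 12th from the top in males, and 48th and 20th in females.

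By set, the rise of dme-miR-276a ran from 0.62 ± 0.16 in D. simulans females (1.54-fold, adjusted p = 0.000921 by limma) to 1.3 ± 0.16 in Oregon-R females (2.46-fold, adjusted p = 2.32e-10). It was 1.08 in Oregon-R males, 0.99 in Canton-S males, 1.15 in Samarkand males, 0.89 in Zimbabwe-109 males, 1.21 in D. simulans males and 1.19 in D. yakuba males, each ± 0.16. The SE is equal in all sets because the fit shares 1 estimate of the spread over all 72 samples. It does not show the spread within a set. In Zimbabwe-109 females the rise was 0.71 ± 0.16, and 0.44 without replicate 4 (adjusted p = 0.0221 by limma). With only the samples of that set, its call was lost. The rise of dme-miR-276b ran from 0.93 ± 0.23 in Zimbabwe-109 males (1.9-fold, adjusted p = 0.000558 by limma) to 2.25 ± 0.23 in D. simulans males (4.74-fold, adjusted p = 4.09e-12). It was 1.6 in Oregon-R males, 1.6 in Canton-S males, 1.95 in Samarkand males, 1.99 in D. yakuba males, 1.85 in Oregon-R females, 1.05 in Zimbabwe-109 females and 1.33 in D. simulans females, each ± 0.23 by the same shared spread. Both guides passed the test in all 9 sets in the main fit, and leaving out any 1 array changed none of these calls. With median centring in place of loess, the call of dme-miR-276a was lost in both sexes of Oregon-R and of D. simulans. With quantile normalization it was lost in D. simulans females. Over 8 settings of background, scaling and source, that call held in all 8 only in D. yakuba males, and in 4 in D. simulans females. In the authors' deposited table of processed intensities, whose scaling is unknown, the call of dme-miR-276a was lost in Canton-S males (0.43), Zimbabwe-109 males (-0.0023), Zimbabwe-109 females (0.12) and D. simulans females (0.41), and that of dme-miR-276b in Zimbabwe-109 males (0.45) and females (0.4). The values above come from the scanner files after the background correction and normalization given below. Which processing lies nearer the true change was not tested.

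All 11 tested miR-276 probes rose in Oregon-R males, where 18.4% of the 272 tested probes did, in Canton-S males (31.6%), in Samarkand males (27.9%) and in Zimbabwe-109 males (40.4%). The same count held in D. simulans males, with 32.4% of all tested probes higher at PF, in D. yakuba males with 30.9%, in Oregon-R females with 41.9% and in D. simulans females with 24.3%. In Zimbabwe-109 females 9 of the 11 rose, beside 40.8% of all tested probes, and bmo-miR-276 (0.42 ± 0.19, adjusted p = 0.0535 by limma) and aga-miR-276-5p (0.3 ± 0.17, adjusted p = 0.121) did not pass. Averaged over strains, all 11 rose in D. melanogaster males, where 46.7% of tested probes did, and in females, where 49.6% did. The median change of the 11 was 0.72 in D. melanogaster males, against 0.13 over all tested probes, and 0.74 against 0.19 in females. Since the 3 guide probes and the 8 star probes overlap in sequence, these are counts of probes and not of miRNAs. The calls of the star probes depended on the background correction and scaling, as given below.

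**Figure D2:**
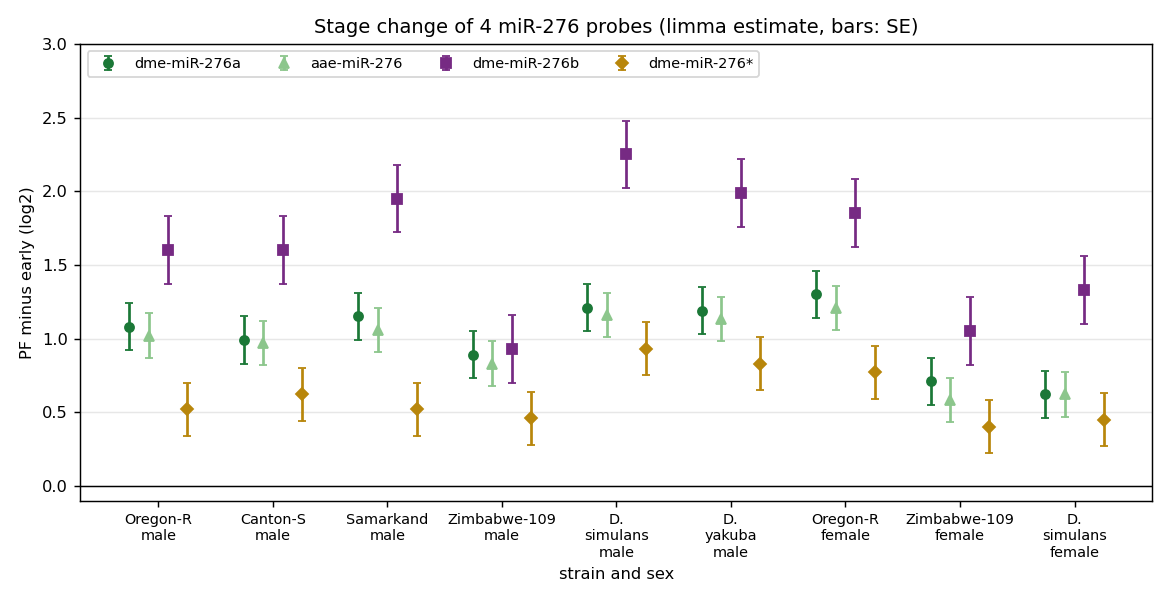
Change from the early stage to PF on the log2 scale for dme-miR-276a, aae-miR-276, dme-miR-276b and dme-miR-276*, by strain and sex. Points are limma estimates and bars their SE; all lie above 0, dme-miR-276b runs from 0.93 to 2.25, and dme-miR-276a from 0.62 to 1.3 with aae-miR-276 close beside it.

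The signal of the dme-miR-276b probe changed more with stage than that of the dme-miR-276a probe. Whether the 2 probes respond alike to a change of their miRNAs was not tested. Over the 36 arrays, the within-array change of dme-miR-276b minus that of dme-miR-276a was 0.6 ± 0.59 (log2, SD; SE 0.1), positive on 29 arrays, with p = 2e-05 in a two-sided sign-flip permutation test with 100000 resamples. All 4 arrays were positive in Oregon-R males (mean 0.52), Samarkand males (0.79), D. simulans males (1.03), D. simulans females (0.71) and D. yakuba males (0.81). In D. simulans females the 4 differences lay between 0.67 and 0.76, and in Zimbabwe-109 males they lay between -0.22 and 0.29 with a mean of 0.04. Only 2 of 4 arrays were positive in Zimbabwe-109 males, in Zimbabwe-109 females (mean 0.34) and in Canton-S males (mean 0.6, from -0.38 to 1.75), and 3 of 4 in Oregon-R females (mean 0.55). Within a set of 4 arrays no exact test can pass the threshold, since 2 of the 16 sign patterns are always as extreme. The size differed between the dye orientations: the mean difference was 0.32 ± 0.43 (SD) on the 18 arrays with PF in Cy5 and 0.88 ± 0.61 on the 18 with PF in Cy3, and the dye-balanced mean stands between them.

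The shorter guide probe, aae-miR-276, gave nearly the values of dme-miR-276a. Its change was 0.97 ± 0.08 in D. melanogaster males and 0.9 ± 0.11 in females, and it rose in all 9 sets, by 0.58 to 1.21. The change of dme-miR-276a minus that of aae-miR-276 was 0.06 ± 0.18 (SD, 36 arrays), positive on 22 arrays (permutation p = 0.0507), a p that lay at the threshold and passed it with 12 of the 36 arrays left out in turn. Their group means correlated at 0.974 over the 18 groups, a description of probes that read the same strand on the same arrays.

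**Figure D3:**
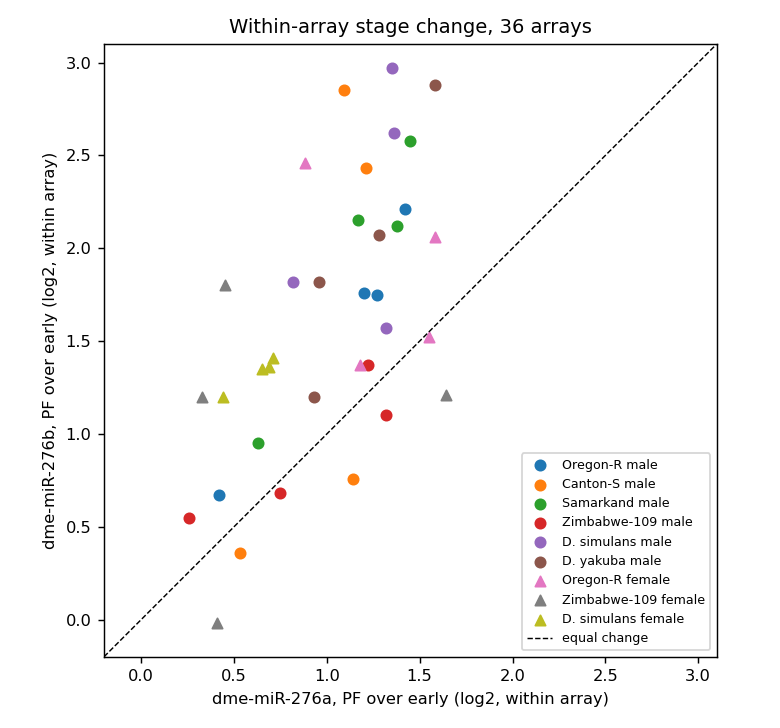
Change from the early stage to PF within each of the 36 arrays for dme-miR-276a (horizontal) and dme-miR-276b (vertical), both on the log2 scale, coloured by strain and sex with circles for males and triangles for females. The dashed line marks equal change; 29 arrays lie above it, and the 4 arrays of Zimbabwe-109 males lie close to it.

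The star strand, the partner of the guide in the hairpin that is usually degraded, was dim. dme-miR-276* was above background in 47 of 72 samples, with scanner intensities of 32.8 to 514, and the other star probes in 51 to 56 of 72. In D. yakuba males its normalized log2 intensity was 6.81, 6.42, 6.88 and 6.58 early and 7.05, 7.88, 7.22 and 7.89 at PF. In Zimbabwe-109 males it was 6.37, 6.13, 6.18 and 6.56 early and 6.65, 7.07, 6.36 and 6.98 at PF. The stages did not overlap in D. yakuba males and overlapped in Zimbabwe-109 males. Its rise ran from 0.4 ± 0.18 in Zimbabwe-109 females (adjusted p = 0.0493 by limma) to 0.93 ± 0.18 in D. simulans males (adjusted p = 1.91e-05), and it passed the test in all 9 sets. In 5 of them the call rested on single arrays. It was lost in Oregon-R males without replicate 2 (0.45) or 4 (0.49), in Samarkand males without replicate 1 (0.52) or 3 (0.42), in Zimbabwe-109 males without replicate 1, 2 or 3 (0.37 to 0.47), in Zimbabwe-109 females without replicate 1, 2 or 4 (0.27 to 0.46) and in D. simulans females without any 1 of the 4 (0.41 to 0.5).

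For several star probes the early groups give only a bound. dme-miR-276* was not well above background in any early sample of Canton-S, Samarkand and Zimbabwe-109 males, with 4, 3 and 3 of 4 samples above background at PF. Taken against the lowest signal measured above background on the same arrays, it was at least 1.47-fold higher at PF in Canton-S males (means of 7.32 and 6.71), and no bound above 1 could be given in the other two. Where a bound could be given for the other star probes in such groups, it was between 1.01-fold and 1.78-fold, the highest that of dwi-miR-276b* in Canton-S males. Over the 8 star probes the fitted changes ran from 0.53 to 0.77 in D. melanogaster males and from 0.59 to 0.77 in females, from 0.76 to 1.11 in D. simulans males and from 0.83 to 1.2 in D. yakuba males. The size of these changes depended on the background correction. The median over the 8 probes was 0.7 in D. melanogaster males and 0.73 in females, and became 2.52 and 1.53 with the empty-spot median subtracted and 1.86 and 1.02 in the authors' table. Across the settings of background, scaling and source the lowest and highest medians were 0.59 and 2.52 for the males and 0.38 and 1.53 for the females, and the median reached 3.2 in Samarkand males and 3.12 in Zimbabwe-109 males with subtraction. With cyclic loess 0 of the 8 passed in each of these 2 sets, where all 8 passed with normexp, loess and Aquantile. With median centring in place of loess, 0 of the 8 passed in males of Oregon-R, Zimbabwe-109 and D. simulans. The same held in females of Oregon-R and D. simulans. In D. simulans females 0 of the 8 also passed with the empty-spot median subtracted. All 8 passed in each of these sets in the main fit.

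Whether the guide or the star strand changed more could not be given a direction. The target of dme-miR-276* shares 22 bases with those of dwi-miR-276b* and dgr-miR-276b*. Whether the probe reads the star strands of both hairpins was not tested, so the comparison need not lie within 1 hairpin. The change of dme-miR-276a minus that of dme-miR-276* was 0.4 ± 0.41 (SD) over 36 arrays, positive on 29 (permutation p = 3e-05). With the empty-spot median subtracted it was -1.09 ± 1.23 over the 35 arrays with a value in both channels, positive on 5 (permutation p = 2e-05), and in the authors' table -0.95 ± 1.17, positive on 9 of 36 (permutation p = 1e-05, the smallest these resamples can give).

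**Figure D4:**
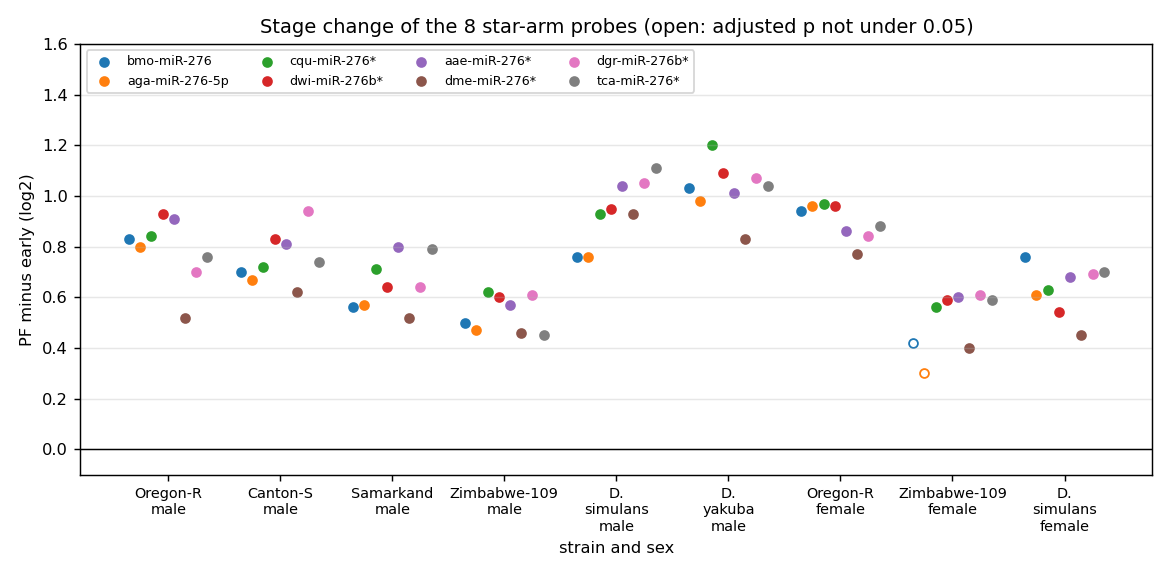
Change from the early stage to PF on the log2 scale for the 8 probes of the star strand, by strain and sex. Points are limma estimates, filled where the adjusted p is under 0.05; 2 open points, bmo-miR-276 and aga-miR-276-5p in Zimbabwe-109 females, are the ones that did not pass.

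Whether the stage change differed between sexes, species or strains was tested directly. The change of dme-miR-276b was larger in D. simulans males than in females by 0.92 ± 0.33 and that of dme-miR-276a by 0.59 ± 0.22, and neither passed (adjusted p = 0.0994 and 0.116 by limma). In Oregon-R and Zimbabwe-109 together the male change differed from the female change by -0.19 ± 0.23 for dme-miR-276b (95% interval -0.65 to 0.27) and by -0.02 ± 0.16 for dme-miR-276a (-0.33 to 0.29). Against D. melanogaster males, the change of dme-miR-276b was larger by 0.73 ± 0.26 in D. simulans (adjusted p = 0.135 by limma) and by 0.48 ± 0.26 in D. yakuba (adjusted p = 0.197). For dme-miR-276a these differences were 0.18 ± 0.17 and 0.16 ± 0.17. None of the 11 probes passed in any of these 4 tests, in which 5.88% (D. simulans sexes), 23.2% (D. melanogaster sexes), 1.1% (D. simulans against D. melanogaster) and 19.9% (D. yakuba against D. melanogaster) of the tested probes did.

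The male and the female samples, which lay on separate slides, differed in miR-276b, and for miR-276a no difference passed the test. In Oregon-R, dme-miR-276b was lower in males by 1.86-fold at the early stage (male minus female -0.9 ± 0.3, adjusted p = 0.0186 by limma) and by 2.23-fold at PF (-1.16 ± 0.3, adjusted p = 0.0015). In Zimbabwe-109 it was lower in males by 1.87-fold early (-0.91 ± 0.3, adjusted p = 0.0189 by limma) and by 2.04-fold at PF (-1.03 ± 0.3, adjusted p = 0.00552). In D. simulans the male level was lower early (-0.9 ± 0.3, adjusted p = 0.0293 by limma) and at PF it was 0.02 ± 0.3 from the female level (95% interval -0.59 to 0.62). The PF samples of Oregon-R, 9.63 to 10.23 in males and 10.69 to 11.67 in females, did not overlap, nor did the early samples of D. simulans, 8.22 to 8.57 and 9.08 to 9.52.

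These differences carry the slides with them, since no slide held both sexes. With slide as a random block, the difference at PF in Oregon-R was -1.28 and passed (adjusted p = 0.0353 by limma), whereas the others that had passed did not, with adjusted p = 0.121 in Oregon-R early, 0.23 and 0.122 in Zimbabwe-109 at the 2 stages and 0.307 in D. simulans early. The early calls also rested on single arrays. The call in Oregon-R was lost without male replicate 4 or female replicates 1 or 2, in Zimbabwe-109 without male replicates 2 or 3 or female replicate 4, and in D. simulans without any array other than male replicate 4 and female replicate 1, while the values stayed between -1.11 and -0.68. No array left out ended a call at PF.

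For dme-miR-276a the male minus female difference was 0.37 ± 0.2 in Oregon-R, 0.26 ± 0.2 in Zimbabwe-109 and -0.19 ± 0.2 in D. simulans at the early stage, and 0.16 ± 0.2, 0.44 ± 0.2 and 0.4 ± 0.2 at PF, with adjusted p of at least 0.0902 by limma. The value in Zimbabwe-109 at PF passed without male replicate 3 (0.56) or female replicate 4 (0.52). With median centring in place of loess, its sign turned in Oregon-R (-0.47 early, -0.39 at PF) and Zimbabwe-109 (-0.21 and -0.2), so no direction is given for miR-276a. The shorter probe aae-miR-276 was 0.72 ± 0.2 higher in males of Zimbabwe-109 at PF (adjusted p = 0.00309 by limma), where dme-miR-276a did not pass; the value was 0.67 and still passed with slide as a random block, did not pass with median centring (0.2) and turned in the authors' table (-0.48). Of the 11 probes, 1 passed in Oregon-R early and 1 at PF, beside 29.8% and 36% of all tested probes. In Zimbabwe-109 it was 1 early and 2 at PF, beside 25.7% and 34.6%, and in D. simulans 2 early and 0 at PF, beside 16.2% and 15.1%. The second in D. simulans was the star probe cqu-miR-276*, lower in males by 0.62 ± 0.21 on the log2 scale (adjusted p = 0.0371 by limma). That call was lost under every other setting tried and without any 1 array other than female replicate 2, and the value turned with median centring (0.06). These shares lay below those of all tested probes except in the early comparison of D. simulans.

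Between species, D. yakuba males had more miR-276b signal than D. melanogaster males. The difference was 0.74 ± 0.24 at the early stage (1.67-fold, adjusted p = 0.0127 by limma) and 1.22 ± 0.24 at PF (2.32-fold, adjusted p = 7.62e-05). Against D. simulans males it was 0.92 ± 0.3 early (adjusted p = 0.0232 by limma) and 0.66 ± 0.3 at PF (95% interval 0.06 to 1.26, adjusted p = 0.121). D. simulans males differed from D. melanogaster males by -0.17 ± 0.24 early and 0.55 ± 0.24 at PF, and neither passed (adjusted p = 0.706 and 0.114 by limma). The difference of D. yakuba from D. melanogaster at PF held with slide as a random block (1.17, adjusted p = 0.00653 by limma). It also held with slide as a fixed block against Samarkand and Zimbabwe-109 (1.28, adjusted p = 0.0194 by limma). These are the strains that share slides with D. yakuba or with each other.

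The early differences of D. yakuba were less firm. With slide as a random block they were 0.69 against D. melanogaster (adjusted p = 0.155 by limma) and 0.92 against D. simulans (adjusted p = 0.282). The first was lost without D. yakuba replicate 2 (0.58) or 3 (0.62), and the second without either of these (0.76 and 0.79) or without D. simulans replicate 1 (0.89) or 3 (0.85). On the slide that held D. yakuba and Samarkand males, dme-miR-276b was higher in D. yakuba by 1.05 at PF, 4 samples against 2 without overlap, and by 0.83 early, with overlap.

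In the main fit miR-276a did not pass in any species comparison. On the slide that held D. yakuba and Samarkand males, dme-miR-276a was higher in D. yakuba by 0.5 at PF, 4 samples against 2 without overlap. At the early stage it was higher there by 0.36, with overlap. The PF difference of miR-276a between D. yakuba and D. melanogaster passed in 3 of 8 settings of background, scaling and source, from 0.22 to 1.5. In the main fit the largest species difference of miR-276a was 0.22 ± 0.16 at PF between D. yakuba and D. melanogaster (95% interval -0.1 to 0.55, adjusted p = 0.286 by limma). Between these species it was 0.07 ± 0.16 at the early stage. In the PF comparison of D. yakuba with D. melanogaster, 7 of the 11 miR-276 probes were higher, namely dme-miR-276b and 6 star probes, beside 40.8% of all tested probes called in either direction. The star probes in that comparison lay between 0.44 and 0.62, with dme-miR-276* at 0.46 ± 0.19 (adjusted p = 0.0443 by limma). D. simulans at PF had 2 of 11 higher than D. melanogaster, the star probes tca-miR-276* (0.62 ± 0.2) and dgr-miR-276b* (0.57 ± 0.2), beside 11.8%. With slide as a random block or as a fixed block, 0 of the 8 star probes passed in either of these PF comparisons, and their medians were 0.27 and 0.36 for D. yakuba and 0.47 and 0.22 for D. simulans, against 0.5 and 0.51. The fixed-block medians compare D. yakuba with Samarkand and Zimbabwe-109 only, and D. simulans with Oregon-R and Canton-S only. The other medians are against the mean of all D. melanogaster strains. The call of dme-miR-276* in D. yakuba was also lost with 10 of the 20 arrays left out in turn. Those of aga-miR-276-5p, dwi-miR-276b*, dgr-miR-276b* and tca-miR-276* were lost with 3, 3, 5 and 2, and that of cqu-miR-276* with 0. Both calls in D. simulans were lost without D. simulans replicate 2 or 4, and that of dgr-miR-276b* with 10 of the 20 in all. At the early stage 0 of 11 passed for D. simulans against D. melanogaster, beside 8.82%, and 1 of 11, dme-miR-276b, for D. yakuba against D. melanogaster (29.4%) and against D. simulans (16.5%). At PF none of the 11 passed between D. yakuba and D. simulans, where 17.3% of tested probes did. The array was designed on sequences of many species, and how well each probe matches the miRNA of D. yakuba beyond the forms listed on the array was not tested.

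**Figure D5:**
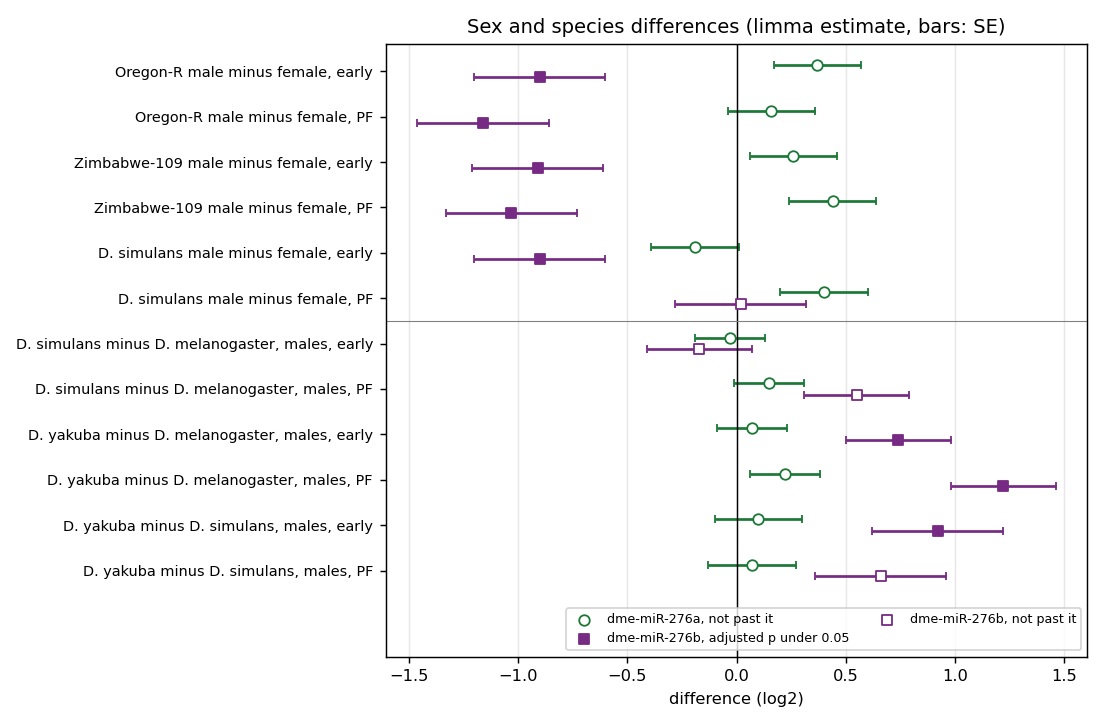
Differences between sexes (upper block) and between species in males (lower block) at each stage for dme-miR-276a (circles) and dme-miR-276b (squares), on the log2 scale. Points are limma estimates, bars their SE, and filled points have an adjusted p under 0.05; the filled points are all of dme-miR-276b, negative between sexes and positive for D. yakuba.

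Among males of the 4 D. melanogaster strains, neither dme-miR-276a nor dme-miR-276b passed limma's F test. For dme-miR-276a the adjusted p was 0.407 early, 0.653 at PF and 0.867 for the stage change. For dme-miR-276b it was 0.187 (F = 2.2), 0.0962 (F = 2.95) and 0.0872 (F = 3.45). The stage change of dme-miR-276b passed without Canton-S replicate 1 (F = 4.42) or Samarkand replicate 1 (F = 4.13), and its PF level without Canton-S replicate 3 (F = 4.15). Of the 11 probes 0 passed early, beside 37.1% of all tested probes, 4 at PF, beside 35.7%, and 0 for the stage change, beside 22.8%. The 4 were the star probes bmo-miR-276 (F = 5.12), aga-miR-276-5p (4.65), dwi-miR-276b* (4.64) and aae-miR-276* (3.95). With slide as a random block 0 of the 8 star probes passed, and each of the 4 calls was lost without Oregon-R replicate 2 or 3.

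The miRNAs whose levels moved most like the guides were sought among the 87 other tested probes listed for D. melanogaster, by Pearson's r over the 18 group means. For dme-miR-276a these were miR-2a (r = 0.941), let-7 (0.935), miR-2b (0.913), miR-306 (0.872) and, below it, miR-305, and the lowest was miR-34 (-0.891). For dme-miR-276b they were dme-mir-2a-2-5p (0.915), miR-306 (0.86), miR-9a (0.86), dme-mir-2a-1-5p (0.849) and miR-2c (0.848), and the lowest was dme-mir-316-3p (-0.88). Of these, dme-mir-2a-2-5p was above background in 28 of 72 samples and dme-mir-2a-1-5p in 38, so their r rests largely on values at background and their places in the order carry little weight. The others named were above background in 62 to 72 samples. The median r over the 87 probes was 0.276 and 0.358. The guides themselves correlated at 0.81, and dme-miR-276a with dme-miR-276* at 0.846. The group means share arrays, dyes and the stage split, which sets most of their range.

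Beside other miRNAs with known roles in the circadian system, miR-276a was one of several that rose. That list had 18 probes on the array, of which 9 were tested, dme-miR-276a itself among them. miR-276a rose in all 5 comparisons below and is counted in each. bantam is counted by both dme-bantam and dme-bantam-5p. This list and the next were chosen with earlier results of these data known, so their shares are a description and not a test. let-7, in both lists, also served above as the check of the stage labels. Of the 9 tested probes, 7 rose and 1 fell in D. melanogaster males (77.8% and 11.1%, beside 46.7% and 21% of all tested probes). In D. melanogaster females it was also 7 and 1, beside 49.6% and 26.5%. In D. simulans males 5 rose and 0 fell (55.6%, beside 32.4% and 12.5%), and in D. yakuba males 6 and 0 (66.7%, beside 30.9% and 15.4%). In D. simulans females 3 rose and 0 fell, and these 33.3% lay near the 24.3% of all tested probes that rose, with 14% that fell. The 3 were miR-276a itself, miR-279 and let-7. The list medians in the order of these 5 comparisons were 0.29, 0.31, 0.4, 0.37 and 0.13, against 0.13, 0.19, 0.15, 0.08 and 0.04 over all tested probes. In D. melanogaster males the range ran from miR-964 (-0.67 ± 0.27, adjusted p = 0.024 by limma) to let-7 (4.73 ± 0.12, adjusted p = 1.28e-39), with miR-279 at 2.19 and miR-92a at 0.8. Of miRNAs known from the nervous system the array had 22 probes, of which 15 were tested, dme-miR-276a and dme-miR-276b among them. Both guides rose in all 5 comparisons and are counted in each. The tested probes of let-7, miR-124, miR-263a, miR-276a and miR-279 stand in both lists, so the lists are not independent of each other. Of the 15 tested probes, 10 rose (66.7%) and 2 fell in D. melanogaster males and 10 (66.7%) and 3 in females. In D. simulans it was 8 (53.3%) and 2 in males and 7 (46.7%) and 2 in females, and in D. yakuba males 8 (53.3%) and 3, each beside the shares of all tested probes given above. The list medians were 0.43, 0.36, 0.45, 0.45 and 0.33, against 0.13, 0.19, 0.15, 0.04 and 0.08 over all tested probes. In D. melanogaster males dme-miR-276b (1.52) and dme-miR-276a (1.03) stood in this list between let-7 and miR-279 above and miR-7 (0.72) below, with miR-9a at 1.39. The 2 probes that fell were those of miR-34, a miRNA known for its part in neural ageing, at -1.39 ± 0.09 (adjusted p = 1.23e-20 by limma) and -0.97 ± 0.13 for its 3p form.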

How the data were processed

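The authors' scanner files give 1 linear intensity per spot and channel, per the file headers, with no local background, while the authors' other deposited table gives processed intensities, of unstated scale and centring. Its column medians ran from 0.00375 to 5.04, and it served as an alternative, on log2. The labels' protocols leave labelling to a service company. Empty spots (689 of 5022) gave each channel's background: normexp with an offset of 50, loess within arrays, Aquantile between arrays, the median of 3 spots on log2 (limma 3.58.1, R 4.3.3). A probe counted as above background over the empty-spot median plus 3 SD. Probes above it in at least 3 samples of a group, 272 of 1339, were fitted over all 72 samples with group and dye, the array as random block (correlation 0.411), and tested by limma with Benjamini-Hochberg adjustment per comparison at 0.05. The fit was tested on simulated data. The array pairs both stages of a replicate by the headers: deviations from the group means correlated at 0.0123 to 0.637, above 0.1 on 31 of 36 arrays. Every miR-276 probe is named; the 5 most and 1 least alike probes, and the ends of each list, were named by rule, and the other list members named were chosen after their values were seen. Members and lists were chosen with earlier results of these data known. Alternatives changed the background, scaling, filter, blocks, samples and source.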

Additional observations from a re-analysis of the deposited data

Results flagged for a closer look

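In 4 of 198 groups of 4 samples of the 11 tested probes, 1 sample lay far from the other three by Dixon's test, where chance would give about 1 group in 20. The dme-miR-276a probe read 11.23 in replicate 3 of Zimbabwe-109 females at PF, with the others at 12.06 to 12.2. The aae-miR-276 probe read 10.86 in replicate 2 of Samarkand males at the early stage, with the others at 11.44 to 11.5. The star probe aga-miR-276-5p read 7.15 in replicate 1 of Canton-S males at PF, with the others at 7.37 to 7.4, and 7.29 in replicate 1 of D. yakuba males at PF, with the others at 7.8 to 7.9.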

How the results depend on the processing

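The rise of both guides averaged over D. melanogaster males and over females, and the larger change of dme-miR-276b, kept direction and call under every alternative run; dme-miR-276b is not among the 60 probes detected in all samples and has no value under that filter. The difference between the guides ran from 0.57 to 0.63 with each array left out in turn and was 0.98 with the empty-spot median subtracted, 0.65 with no background correction, 0.71 with median centring, 0.68 with quantile normalization, 0.58 with cyclic loess, 0.84 in the authors' table with and without centring and 0.59 with the mean of the spots. Pairing by array moved no call of a stage change of the 2 guides: with no replicate block the D. melanogaster changes stayed at 1.03 and 1.52 in males and 1.0 and 1.45 in females. Of 391 recomputed stage changes of the guides by set or species 373 kept direction and call, as did 179 of 234 sex differences, 294 of 338 species differences, 210 of 220 differences of stage changes and 153 of 165 strain tests. Of these recomputed values 120, 96, 192, 128 and 96, in that order, only left out 1 array, so the counts do not measure the processing alone. No difference of stage changes and no strain test of the guides passed in the main fit. A kept call there is one that still did not pass. The difference between dme-miR-276a and dme-miR-276* turned with subtraction (-1.09) and in the authors' table with and without centring (both -0.95), and ran from 0.38 to 0.43 with each array left out. Of 1721 stage changes of the other 9 probes, 540 of them with only 1 array left out, 1475 kept direction and call, 239 lost the call, 6 gained it and 1 turned. The 1 that turned was aae-miR-276 in Zimbabwe-109 males in the authors' table (-0.13). Of their called sex, species and strain results, 19 of 39, 99 of 256 and 47 of 108 recomputed values lost the call and 2 turned, cqu-miR-276* in D. simulans early with median centring (0.06) and aae-miR-276 in Zimbabwe-109 at PF in the authors' table (-0.48). The cause of the changes that follow was not tested. The signal over background limits the star probes and the early samples of dme-miR-276b.

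For the stage change of dme-miR-276a, calls were lost with median centring in Oregon-R males (0.8), D. simulans males (0.82), Oregon-R females (0.73) and D. simulans females (0.64), with quantile normalization in D. simulans females (0.45), and with only the 8 samples of Zimbabwe-109 females (0.71). In the authors' table they were lost in Canton-S males (0.43), Zimbabwe-109 females (0.12) and D. simulans females (0.41), and the sign turned in Zimbabwe-109 males (-0.0023). With that table centred they were lost in Canton-S males (0.53), Samarkand males (0.38), Zimbabwe-109 males (0.2), Zimbabwe-109 females (0.62) and D. simulans females (0.36). For dme-miR-276b the authors' table lost the call in Zimbabwe-109 males (0.45) and females (0.4), and its centred form in Zimbabwe-109 males (0.66).

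For the sex difference of dme-miR-276b, the early call in Oregon-R was lost in the centred table (-0.32), with the mean of the spots (-0.77) and with slide as a block (-1.02). In Zimbabwe-109 early it was lost with median centring (-1.53), quantile normalization (-0.61), the centred table (-0.79), no filter (-0.91) and slide as a block (-0.8). In D. simulans early it was lost with subtraction (-1.06), median centring (-0.69), cyclic loess (-0.93), the authors' table (-1.18), no filter (-0.9) and slide as a block (-0.76). At PF it was lost in Oregon-R in the centred table (-0.23), and in Zimbabwe-109 with subtraction (-0.96), median centring (-1.54), quantile normalization (-0.65) and slide as a block (-0.93). In D. simulans at PF, where nothing was called, the sign turned with no background correction (-0.014), median centring (-0.1), quantile normalization (-0.2), cyclic loess (-0.2), the authors' table (-0.37) and its centred form (-0.3). With each array left out the early values ran from -1.11 to -0.71, from -1.06 to -0.68 and from -0.99 to -0.79 in these 3 strains, and D. simulans at PF from -0.12 to 0.17.

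For dme-miR-276a the sex difference turned with median centring in Oregon-R (-0.47 early, -0.39 at PF) and Zimbabwe-109 (-0.21, -0.2), and in the authors' table in Zimbabwe-109 (-0.77, -0.89), Oregon-R (-0.55, -0.6) and, at PF, D. simulans (-0.041). It became a call in Oregon-R in the centred table (1.63, 1.46) and, early, with slide as a block (0.78). With each array left out Zimbabwe-109 at PF ran from 0.24 to 0.56.

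For the species, the call of dme-miR-276b in D. yakuba over D. melanogaster early was lost with slide as a random block (0.69) or fixed block (0.7), and ran from 0.58 to 0.95 with each array left out. Over D. simulans early it was lost with subtraction (1.05), median centring (0.68), quantile normalization (0.76), the centred table (0.81), no filter (0.92) and slide as a block (0.92), and ran from 0.76 to 1.13. At PF it became a call over D. simulans with cyclic loess (0.92) and in the authors' table (1.81). D. simulans minus D. melanogaster early turned with subtraction (0.08), median centring (0.53), quantile normalization (0.039), the authors' table (0.28) and its centred form (0.15).

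For dme-miR-276a, the same difference turned with median centring (0.88), quantile normalization (0.14), the authors' table (0.41), its centred form (0.28) and the mean of the spots (0.0065), and ran from -0.19 to 0.08. D. yakuba over D. melanogaster early turned with subtraction (-0.016), no correction (-0.029) and the centred table (-0.18), was called in the authors' table (1.03) and ran from -0.021 to 0.13. At PF it was called with quantile normalization (0.59), cyclic loess (0.49) and the authors' table (1.5). D. yakuba minus D. simulans early turned with subtraction (-0.01), median centring (-0.32), quantile normalization (-0.07) and the centred table (-0.46), and ran from -0.011 to 0.26. At PF it turned in the centred table (-0.24) and ran from -0.013 to 0.15.

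Among differences of stage changes, that between sexes in D. melanogaster turned for dme-miR-276a with median centring (0.037; -0.12 to 0.12 with each array left out) and for dme-miR-276b with subtraction and in the authors' table (both 0.13). For dme-miR-276a the one for D. simulans turned with median centring (-0.38) and the one for D. yakuba was called with cyclic loess (0.47). The strain F test of dme-miR-276a was called at PF with cyclic loess (4.44) and the authors' table (5.53), and for the stage change with cyclic loess (4.2). That of dme-miR-276b was called early with subtraction (4.99), at PF with the mean of the spots (3.82; 1.82 to 4.15 with each array left out), and for the stage change with subtraction (4.49), quantile normalization (4.55), the authors' table (4.66) and its centred form (4.67; 2.33 to 4.42 with each array left out).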
